A study of Homo sapiens with 2 samples.

Results

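The genes of nucleotide excision, base excision and mismatch repair were compared between A549/DDP and A549 cells. They were taken by name as 41 genes, 22 of the first route, 14 of the second and 5 of the third, out of 19775 measured genes. A549 is a human lung adenocarcinoma line, and A549/DDP is a cisplatin-resistant line whose parental line is A549. Each line gave 1 Affymetrix expression array, from cells in conventional culture that had been detached with trypsin. The labels name no drug for either line. They disagree on the resistant one, since its title and phenotype give chemoresistant A549/DDP while a free-text note on the same sample speaks of overexpressed ZNF300, and the title was followed. Whether A549/DDP was kept in cisplatin up to the harvest, and whether it is a single clone, is not given in the sources used here. With 1 array for each line no value had a replicate, and no difference between the lines could be tested.

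These routes remove damage from a single DNA strand and copy the gap from the other. In nucleotide excision repair, bulky lesions such as platinum crosslinks within a strand are found by XPC or by a stalled RNA polymerase, the DNA is opened by the TFIIH complex, and the damaged stretch is cut out by a pair of nucleases. In base excision repair, a glycosylase takes off a small altered base, and the abasic site is cut, filled and sealed. Mismatch repair removes mispaired bases left by replication, and is also known to pass on the toxic signal of cisplatin lesions.

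Values are log2 signals as deposited, and a difference is the log2 signal of the array labelled A549/DDP minus that of the A549 array. The array's median, 6.18 for A549/DDP and 6.22 for A549, served as floor, a level below which signals were not read as expression. The zinc-finger gene ZNF300 was selected by the study as higher in A549/DDP. The study took its candidates from its own array comparison of these lines at 3-fold, joined with promoter methylation. ZNF300 was then found higher by RT-PCR and at the protein level. Its log2 signal was 5.76 on the array labelled A549/DDP, under the floor, and 7.59 on the A549 array, which is the opposite direction. Whether the labels of the arrays were exchanged was not tested. An exchange would turn every direction given here, so that directions are those of the array labelled A549/DDP. RNA integrity, read from GAPDH as its 3′ signal over its 5′ signal, gave 1.02 on the array labelled A549/DDP and 1.05 on the A549 array, whereas the same measure from ACTB gave 3.70 on the array labelled A549/DDP and 4.21 on the A549 array. All 20 markers of S phase and mitosis had higher signals on the array labelled A549/DDP, with a median difference of 2.18. Their differences ranged from 0.68 for E2F1 to at least 3.83 for CDC45, which was under the floor on the A549 array. The study reported slower growth in cells with more ZNF300, and a slow-cycling phenotype in chemoresistant cells beside chemosensitive ones. It also reported most cyclin and checkpoint genes as higher in A549 cells that overexpress ZNF300. Growth was not measured on these arrays. Of the epithelial markers, KRT19 and CLDN4 were under the floor on both arrays and CDH1 and EPCAM on the array labelled A549/DDP alone, while KRT8 and KRT18 were over it on both. CDH2, the cadherin of mesenchymal cells, was over the floor on both, with 11.31 on the array labelled A549/DDP and 10.41 on the A549 array. Of the genes for which A549 is known, AKR1C1, AKR1B10, NQO1, GCLM, TXNRD1 and ALDH3A1 were over the floor on both arrays and ALDH1A1 on neither. Of 16 blood, fibroblast and endothelial markers, 7 were over the floor on 1 array or both: COL1A1, KDR and LCP1 on both, CD3D and CD79A on the array labelled A549/DDP and HBB and DCN on the A549 array. PTPRC, CD14, SPI1, COL3A1, LUM, PDGFRB, PECAM1, VWF and CDH5 were over it on neither. In RNA from whole cultures, fewer cells of a kind and less RNA per cell cannot be told apart. The part of these markers in the differences below was not tested.

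As a group, the repair genes were level between the arrays. Of the 41 genes, 39 had a probe set of their own, and all 39 were over the floor on both arrays. The exceptions were NEIL1, a glycosylase for oxidized bases, and PMS2, a subunit of the main MutL complex, each read only by 2 probe sets that are shared with another gene, and neither is given a value here. The median difference of the 39 genes was -0.01, and 19 had positive and 20 negative differences. Over all 13159 expressed genes the median was 0.00, and 50.4% were higher. A single member, UNG, was at least 2-fold higher, which is 2.56% of the 39, beside 6.13% of all expressed genes. A single member, XAB2, was at least 2-fold lower, beside 7.40% of all expressed genes. None reached 3-fold in either direction, the threshold of the study, which 2.14% and 2.18% of all expressed genes passed. At 1.5-fold, 5 members were higher, beside 15.6% of all expressed genes, and 6 were lower, beside 18.0%.

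**Figure D1:**
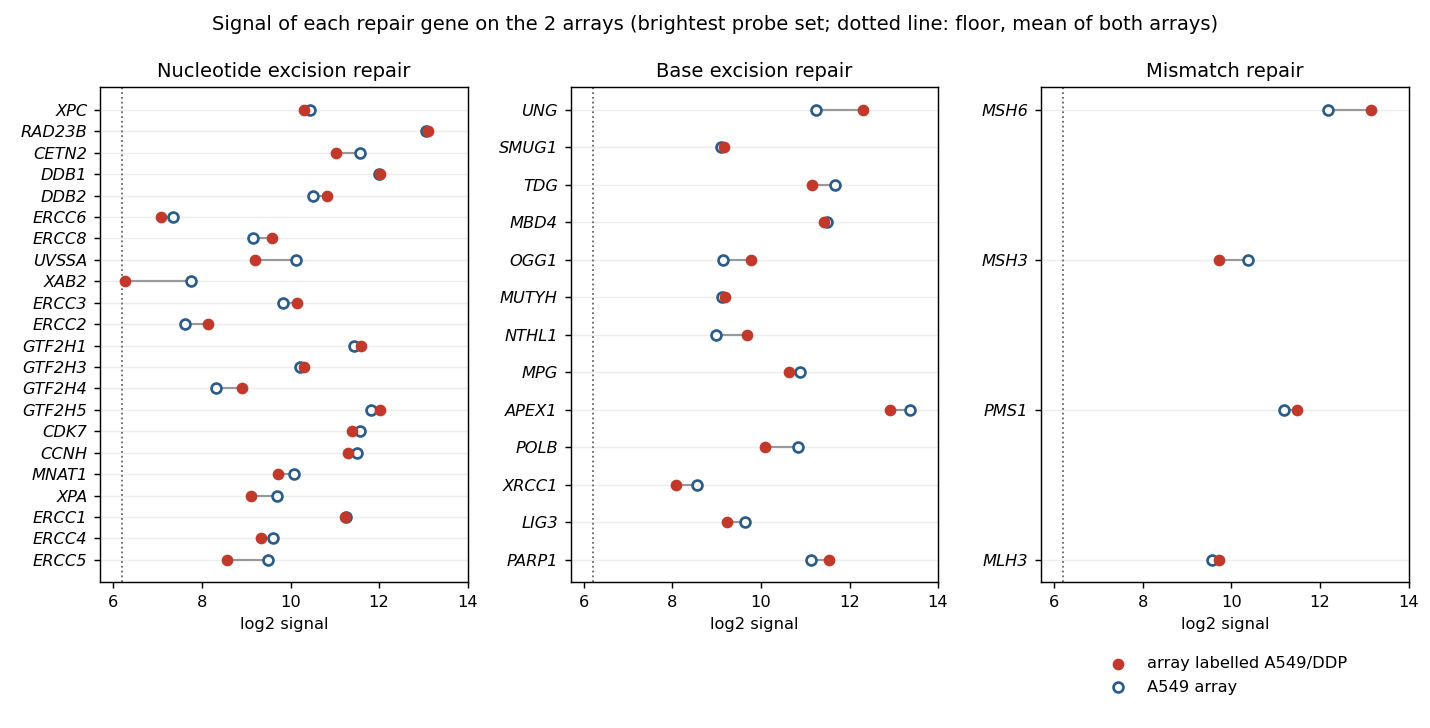
Log2 signal of each of the 39 measured repair genes on the array labelled A549/DDP (filled red) and on the A549 array (open blue), in a panel for each route, with the floor as a dotted line. The longest connecting lines belong to XAB2 (6.27 on the array labelled A549/DDP, 7.74 on the A549 array) and UNG (12.31 on the array labelled A549/DDP, 11.24 on the A549 array), and most pairs lie close together.

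The differences of all genes show where the members lie among them. They hold the differences between the lines as well as the error, so that they do not stand for replicates. The expressed genes were split into 4 bins of nearly equal size by mean signal. In the brightest bin the central 95% of differences ran from -1.29 to 1.15, and in the dimmest from -1.49 to 1.31. The brightest bin held 15 of the 39 members and the next one 16. None of the 39 was outside the central 95% of its own bin, UNG and XAB2 included. The median size of a member's difference, in either direction, was 0.35, beside 0.39 for all expressed genes.

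**Figure D2:**
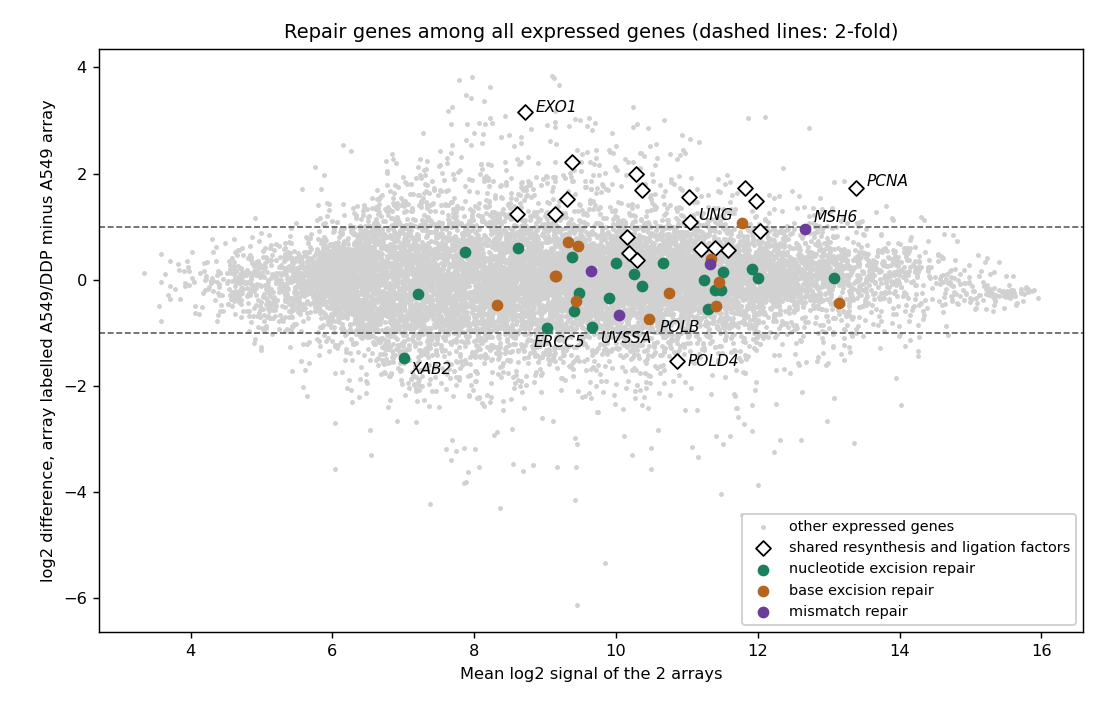
Difference between the arrays (vertical axis, log2) against mean log2 signal for all 13159 expressed genes (grey), with the repair genes coloured by route and the shared resynthesis and ligation factors as open diamonds. Only UNG and XAB2 among the coloured dots are past the dashed 2-fold lines, whereas 13 of the 20 diamonds are.

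In nucleotide excision repair, the genes that find damage across the whole genome were nearly level. XPC, which senses the distorted helix, had a log2 signal of 10.30 on the array labelled A549/DDP and 10.43 on the A549 array. Its partner RAD23B had 13.10 on the array labelled A549/DDP and 13.06 on the A549 array. CETN2, a small calcium-binding protein of the same complex, had 11.02 on the array labelled A549/DDP and 11.58 on the A549 array, a difference of -0.56. The subunits of the UV damage sensor differed by 0.03 for DDB1, with 12.02 on the array labelled A549/DDP and 11.99 on the A549 array, and by 0.31 for DDB2, with 10.83 on the array labelled A549/DDP and 10.51 on the A549 array. DDB2 is a known target of p53. So 3 of these 5 genes had small positive differences and 2 negative ones, and all lay within 1.5-fold.

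The genes that act where RNA polymerase has stalled differed more among themselves. XAB2, a scaffold that binds XPA and also works in splicing, had a log2 signal of 6.27 on the array labelled A549/DDP and 7.74 on the A549 array, which was 2.79-fold lower. Its signal on the array labelled A549/DDP was just over the floor, and it was read by 1 probe set. UVSSA, which steadies the stalled complex and brings in TFIIH, had 9.21 on the array labelled A549/DDP and 10.11 on the A549 array, a difference of -0.90. The probe sets of UVSSA did not move together, as is given below. ERCC6, the translocase that first meets the polymerase, had 7.08 on the array labelled A549/DDP and 7.35 on the A549 array. ERCC8, part of the ubiquitin ligase that follows, was the only one of the 4 with a positive difference, at 0.43, with 9.59 on the array labelled A549/DDP and 9.16 on the A549 array.

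TFIIH holds a core with helicases and a kinase module, and their members lay on opposite sides of 0. All 6 core genes among the members had positive differences, from 0.11 to 0.59, with a median of 0.26. Of all expressed genes, 50.4% had positive differences. The core subunit GTF2H2 is not among the members and had no value. In size, the differences of ERCC3, GTF2H1, GTF2H3, GTF2H5 and the kinase module were under 0.38, the typical SD between probe sets of a gene. The helicase ERCC3, which melts DNA, had a log2 signal of 10.15 on the array labelled A549/DDP and 9.84 on the A549 array, and the helicase ERCC2, which scans the strand for damage, had 8.14 on the array labelled A549/DDP and 7.61 on the A549 array. The subunit GTF2H4 differed most in the core, with 8.91 on the array labelled A549/DDP and 8.32 on the A549 array. The remaining structural subunits among the members were close to level. GTF2H1 had 11.58 on the array labelled A549/DDP and 11.44 on the A549 array, GTF2H3 had 10.32 on the array labelled A549/DDP and 10.20 on the A549 array, and GTF2H5 had 12.02 on the array labelled A549/DDP and 11.82 on the A549 array. GTF2H1 and GTF2H3 each had another probe set over the floor on both arrays with a negative difference. All 3 genes of the kinase module, which also activates cell cycle kinases, had negative differences, and each was read by 1 probe set. The kinase CDK7 had 11.38 on the array labelled A549/DDP and 11.57 on the A549 array, its cyclin CCNH had 11.30 on the array labelled A549/DDP and 11.50 on the A549 array, and the assembly factor MNAT1 had 9.73 on the array labelled A549/DDP and 10.08 on the A549 array. Their differences were -0.19, -0.20 and -0.35. Of the TFIIH genes, GTF2H4 alone passed 1.5-fold, at 1.51-fold. With the median over all probe sets of a gene, those under the floor included, 5 core genes stayed over the floor and 3 of them had positive differences.

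The genes that verify and cut the damaged strand were level or lower. XPA, which checks the lesion and arranges the nucleases, had a log2 signal of 9.12 on the array labelled A549/DDP and 9.70 on the A549 array, a difference of -0.59. ERCC5, the nuclease that cuts on the 3′ side, had 8.57 on the array labelled A549/DDP and 9.49 on the A549 array, 1.89-fold lower and the largest difference in the route after XAB2. Both genes were read by 1 probe set. The nuclease that cuts on the 5′ side is a pair of ERCC1 and ERCC4. ERCC1, often studied as a marker of platinum response, had 11.23 on the array labelled A549/DDP and 11.24 on the A549 array, and its 3 probe sets differed by -0.01, 0.12 and -0.39. ERCC4 had 9.34 on the array labelled A549/DDP and 9.60 on the A549 array. Over the 22 genes of nucleotide excision repair, 10 were higher and 12 lower, with a median of -0.07.

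In base excision repair, UNG, which removes uracil from DNA, was the gene with the largest difference. It had a log2 signal of 12.31 on the array labelled A549/DDP and 11.24 on the A549 array, 2.09-fold higher, by 1 probe set of the _s_at kind, which may also bind related transcripts. By their brightest probe sets, the other enzymes that remove uracil or thymine from mispairs did not share this difference. SMUG1 had 9.17 on the array labelled A549/DDP and 9.11 on the A549 array. A dimmer probe set of SMUG1 had 7.07 on the array labelled A549/DDP and 5.34, under the floor, on the A549 array. MBD4 had 11.43 on the array labelled A549/DDP and 11.48 on the A549 array. TDG, which acts at mispaired and modified cytosine sites, had 11.15 on the array labelled A549/DDP and 11.66 on the A549 array, a difference of -0.51, and its other probe set gave -0.25.

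Among the glycosylases for oxidized and alkylated bases, the largest differences were positive. OGG1, which removes oxidized guanine, had 9.78 on the array labelled A549/DDP and 9.15 on the A549 array, and NTHL1, which removes oxidized pyrimidines, had 9.68 on the array labelled A549/DDP and 8.97 on the A549 array. They were 1.56-fold and 1.63-fold higher. MUTYH, which takes out adenine paired with oxidized guanine, was level at 9.18 on the array labelled A549/DDP and 9.12 on the A549 array. MPG, which removes alkylated bases, had 10.62 on the array labelled A549/DDP and 10.88 on the A549 array.

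The genes that process the abasic site mostly had negative differences. APEX1, the endonuclease that cuts the site, had 12.92 on the array labelled A549/DDP and 13.36 on the A549 array, a difference of -0.44. POLB, the polymerase that fills the gap, had 10.09 on the array labelled A549/DDP and 10.83 on the A549 array, 1.68-fold lower, and its other 2 probe sets were under the floor on both arrays. XRCC1, the scaffold, had 8.08 on the array labelled A549/DDP and 8.56 on the A549 array, and its ligase LIG3 had 9.24 on the array labelled A549/DDP and 9.65 on the A549 array. PARP1, which senses the nick, went the other way, with 11.54 on the array labelled A549/DDP and 11.14 on the A549 array. Thus 4 of these 5 genes had negative differences, from -0.75 to -0.41. Over the 13 measured genes of the route, 6 were higher and 7 lower, with a median of -0.05 and a mean of 0.00.

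In mismatch repair, the partners that decide which mispairs are found differed in opposite directions. MSH6, the subunit that recognizes single mispairs, had a log2 signal of 13.15 on the array labelled A549/DDP and 12.19 on the A549 array, 1.95-fold higher. Its second probe set over the floor gave nearly the same difference, 0.97 beside 0.96. MSH3, the subunit that recognizes larger loops, had 9.71 on the array labelled A549/DDP and 10.37 on the A549 array, 1.59-fold lower, whereas its second probe set differed by -0.06. The MutL subunits had small positive differences, 0.29 for PMS1 (11.47 on the array labelled A549/DDP and 11.18 on the A549 array) and 0.17 for MLH3 (9.73 on the array labelled A549/DDP and 9.56 on the A549 array). The 4 genes had a median of 0.23.

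Several probe sets of a gene read different parts of its transcripts, and their differences can be set beside each other. Of 15 members with at least 2 probe sets over the floor on both arrays, the sign was shared by all of these in 6, namely ERCC6, ERCC2, TDG, OGG1, MSH6 and MSH3. Over deposited values, with probe sets over the floor on 1 array included, the median SD of the difference between the probe sets of a gene was 0.32 in 18 members, beside 0.38 in 6570 genes of the array. The median size of a member's difference, 0.35, is a measure of another kind and cannot be equated with this SD. ERCC2 had a second probe set with 8.19 on the array labelled A549/DDP and 7.01 on the A549 array, a difference of 1.18 beside the 0.53 given above. For UVSSA, the brightest probe set gave -0.90, while another was over the floor only on the array labelled A549/DDP, with 6.54 there and 5.32 on the A549 array. A further one was over it only on the A549 array, with 3.95 on the array labelled A549/DDP and 6.97 on the A549 array. Its direction thus depended on the probe set. ERCC8 had 3 probe sets over the floor on both arrays, with differences of 0.43, 0.19 and -0.90. A further one was over it only on the array labelled A549/DDP, with 7.21 there and 5.19 on the A549 array. LIG3 had 5, with -0.41, -0.32, -0.78, 0.37 and 1.18, where the dimmer ones were positive.

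Probe sets also differed in sign, or for SMUG1 in size alone, in the following members. PMS1 gave 0.29, -1.22 and 0.15, and the negative one came from a probe set with 7.08 on the array labelled A549/DDP and 8.30 on the A549 array. MLH3 gave 0.17, 0.59 and -0.04, and RAD23B 0.03, -0.11 and 0.40. GTF2H1 gave 0.14, -0.26 and 0.82, GTF2H3 gave 0.11 and -0.14, and the 4 probe sets of MBD4 ran from -0.18 to 0.13. GTF2H5 and SMUG1 each had 1 probe set over the floor on both arrays and another over it on 1. That of GTF2H5 had 5.98 on the array labelled A549/DDP, under the floor, and 6.23 on the A549 array, and that of SMUG1 had 7.07 on the array labelled A549/DDP and 5.34 on the A549 array, under the floor.

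**Figure D3:**
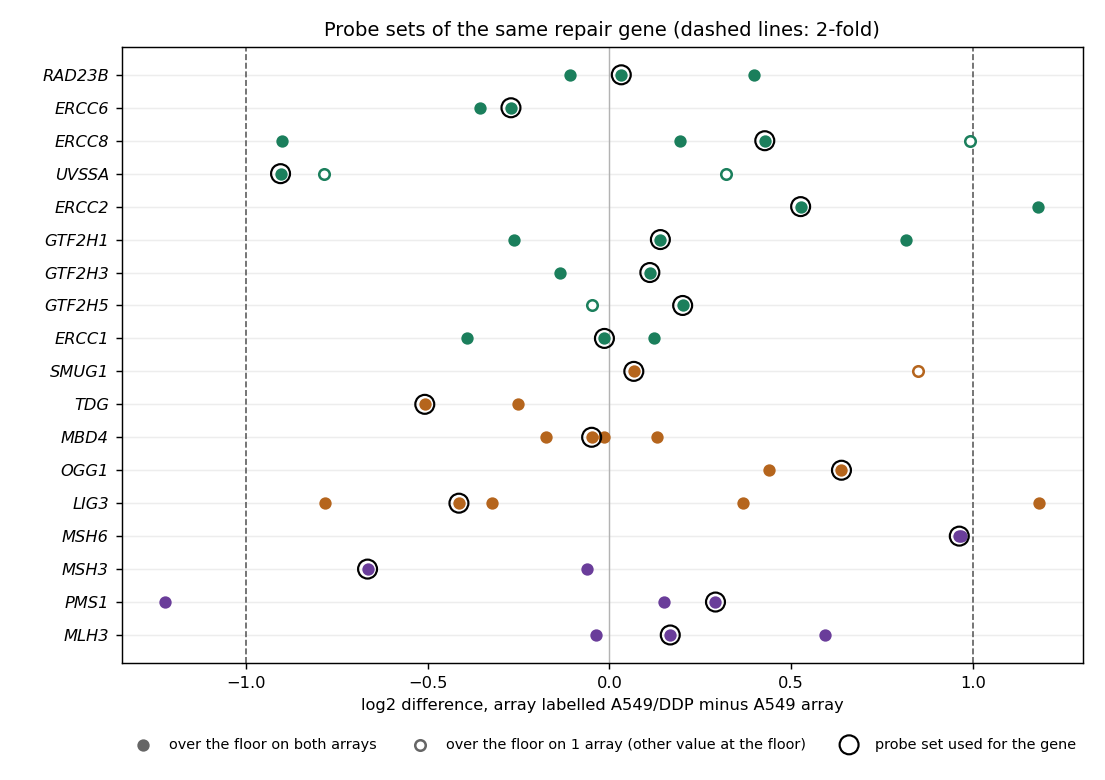
Difference between the arrays (horizontal axis, log2) for every probe set over the floor on at least 1 array, for the 18 members with at least 2 such probe sets; the legend marks the probe set used for the gene, and hollow markers are over the floor on 1 array alone, with the other value raised to the floor. The 2 markers of MSH6 lie together at 0.96 and 0.97, whereas those of UVSSA and ERCC8 lie on both sides of 0.

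The promoters of the members were searched for sites of E2F, the factor family that drives S phase genes, since UNG and MSH6 are the members with the largest positive differences. Because their differences prompted the search, a match in UNG or MSH6 is not separate evidence about them. The motifs TTTCCCGC, TTTGGCGC, TTTGCCGC and TTTCGCGC were sought on both strands in the 250 bases before and 50 after each start that RefSeq gives on GRCh38.p14. A match was present in 4 of the 37 members with a promoter there, 10.8%, beside 6.47% of expressed genes and 41.2% of the shared resynthesis factors given below. The 4 are UNG, MSH6, MSH3 and XPC, printed 5′ to 3′ on the strand of the gene with the matched bases in capitals, so that the position of each match can be read. UNG lies at chr12:109097922-109098221 on the plus strand, MSH6 at chr2:47782895-47783194 (plus), MSH3 at chr5:80654402-80654701 (plus) and XPC at chr3:14178552-14178851 (minus).
UNG: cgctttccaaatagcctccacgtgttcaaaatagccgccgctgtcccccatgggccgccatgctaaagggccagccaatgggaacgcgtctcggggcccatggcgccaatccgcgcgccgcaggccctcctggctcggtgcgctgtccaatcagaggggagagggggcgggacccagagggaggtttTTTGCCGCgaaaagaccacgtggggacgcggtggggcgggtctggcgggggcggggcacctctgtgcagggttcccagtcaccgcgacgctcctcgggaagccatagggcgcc
MSH6: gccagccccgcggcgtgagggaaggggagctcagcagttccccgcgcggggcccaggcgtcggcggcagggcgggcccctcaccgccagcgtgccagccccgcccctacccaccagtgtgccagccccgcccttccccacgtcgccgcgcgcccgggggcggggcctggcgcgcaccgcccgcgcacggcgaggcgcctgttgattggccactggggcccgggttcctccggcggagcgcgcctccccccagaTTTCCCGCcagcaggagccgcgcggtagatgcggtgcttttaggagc
MSH3: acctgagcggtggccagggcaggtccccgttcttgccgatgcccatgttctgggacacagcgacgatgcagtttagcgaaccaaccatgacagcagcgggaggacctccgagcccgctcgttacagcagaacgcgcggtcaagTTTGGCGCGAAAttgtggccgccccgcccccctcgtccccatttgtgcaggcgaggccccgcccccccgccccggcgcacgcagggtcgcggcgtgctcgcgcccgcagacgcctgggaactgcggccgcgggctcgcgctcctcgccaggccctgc
XPC: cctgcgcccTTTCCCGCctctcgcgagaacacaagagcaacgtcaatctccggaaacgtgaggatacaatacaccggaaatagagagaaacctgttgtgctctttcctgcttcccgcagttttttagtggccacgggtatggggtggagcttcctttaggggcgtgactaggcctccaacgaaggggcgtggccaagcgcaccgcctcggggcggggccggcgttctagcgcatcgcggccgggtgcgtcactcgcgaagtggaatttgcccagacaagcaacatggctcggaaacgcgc
In UNG the match begins 63 bases before the start, and in MSH6 3 bases after it, each at 1 of several starts in the table. MSH3 holds 2 overlapping matches that begin 107 and 103 bases before the start, and XPC a match that begins 241 bases before it. The members with a match did not share a direction: UNG and MSH6 had positive differences of 1.07 and 0.96, while MSH3 and XPC had differences of -0.67 and -0.13. Over all expressed genes, the median difference was 0.16 for the 688 genes with a match and -0.0027 for the 9950 without. A match is a run of letters and not a measured binding site. The part of E2F in these differences was not tested.

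**Figure D4:**
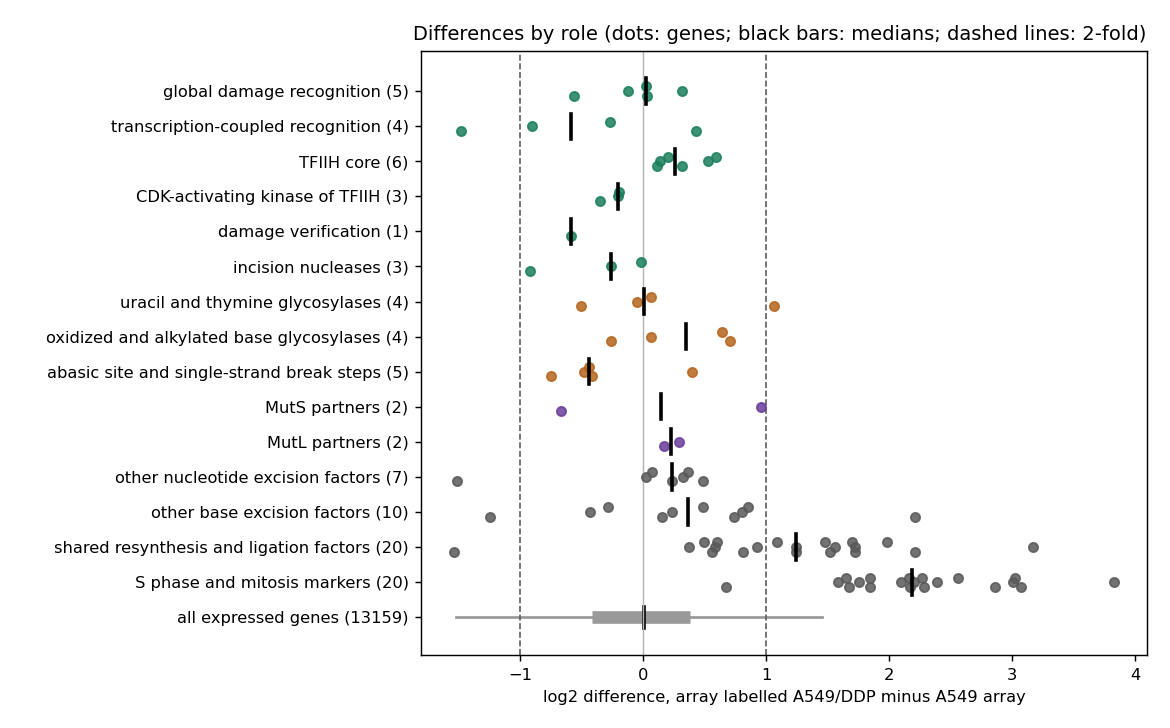
Difference between the arrays (horizontal axis, log2) for each gene, grouped by its role, with the number of genes in brackets and the median as a black bar; for all expressed genes the thick bar is the interquartile range and the thin line the central 95%. The repair roles lie on both sides of 0 and almost wholly within 2-fold, whereas the shared resynthesis factors and the S phase and mitosis markers lie to the right.

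Shared factors, most of which fill and seal the gap after excision and also serve replication, had larger differences. This is given here as a description. Of 20 such genes, 19 had positive differences, with a median of 1.24 beside -0.01 for the members, and 12 passed 2-fold upward and 1 downward. EXO1, the exonuclease that acts in the excision step of mismatch repair, differed most of the 20. It had 10.30 on the array labelled A549/DDP and 7.13 on the A549 array, a difference of 3.17. POLE2, a polymerase subunit, had 10.49 on the array labelled A549/DDP and 8.28 on the A549 array, and RFC3, of the clamp loader, had 11.27 on the array labelled A549/DDP and 9.29 on the A549 array. Of the others past 2-fold, FEN1, PCNA, RFC2, RFC4, LIG1, RPA3, POLE, POLD1 and RPA2 had differences from 1.73 down to 1.09. The exception was POLD4, a small subunit of DNA polymerase delta, with 10.09 on the array labelled A549/DDP and 11.63 on the A549 array. The S phase and mitosis markers, given above, were higher on the same array. Whether the difference of these factors is separate from that of the markers was not tested.

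Other genes tied to a single route were closer to level than these, with exceptions. Of 7 measured factors of nucleotide excision repair outside the 41 genes, 6 had positive differences of at most 0.48, and CUL4B, a scaffold of the DDB1 ubiquitin ligase, had 10.68 on the array labelled A549/DDP and 12.19 on the A549 array, 2.85-fold lower. Of 10 measured factors of base excision repair, the glycosylase NEIL3 had 10.61 on the array labelled A549/DDP and 8.40 on the A549 array, 4.64-fold higher. APEX2, a relative of APEX1, had 7.40 on the array labelled A549/DDP and 8.65 on the A549 array, 2.36-fold lower. Of these 10 factors, 7 had positive and 3 negative differences, with a median of 0.36. CUL4B, APEX2 and the member CETN2 are X-linked. Over 417 expressed X-linked genes the median difference was -0.63, and 344 had negative differences. The 24 nearest expressed genes of CETN2 had a median of -0.18, with 6 higher and 18 lower. The part of the X chromosome in the differences of CUL4B, APEX2 and CETN2 was not tested. For the other members, the median of the 24 nearest expressed genes (fewer at a chromosome end) ranged from -0.26 around XAB2 to 0.40 around UVSSA. Some members differed in the direction opposite to their neighbours. UNG and MSH6, which were higher, each stood among neighbours with a median of -0.08. ERCC5 and POLB, which were lower, stood among neighbours with medians of 0.08 and 0.17. Others, XAB2 among them, differed in the same direction as their neighbours. OGG1, which was higher, stood among neighbours with a median of 0.34. MSH3, XPA and XRCC1, which were lower, had neighbour medians of -0.14, -0.18 and -0.17. The part of chromosomal position in these differences was not tested.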

How the data were processed

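Each line gave 1 array of an Affymetrix 3′ expression platform with 54675 probe sets, 62 of them controls. The authors deposited log2 values. For these, MAS5 and affy are named in the submitters' processing notes (versions not given), whereas the methods of the study describe SCAN and UPC. The values carry a MAS5 trait, since their trimmed mean signal, with 2% taken off each end, was 500.1 on both arrays.

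Probe sets with a single listed gene (41097, of which 41043 matched RefSeq by gene ID) were kept, and 1801 with several genes and 11777 with none were left out. A gene took its brightest such probe set. Values under an array's median were raised to it, and a gene under it on both arrays was not expressed. The report accounts for all 41 genes, gives both signals of expressed ones, and gives every probe set over the floor for single enzymes of a step and for genes past 2-fold or with discordant probe sets. The members and lists were chosen with earlier results of these data known. A further table holds 4 per-sample columns, whose signals are labelled A549-LV5 and A549-ZNF300. In the study, LV5 is the vector used to overexpress ZNF300 in A549 cells, and A549-ZNF300 names the overexpressing cells. These labels are the title of neither sample, and the columns could not be matched to one. The further table also holds the authors' own comparison in folds and directions. None of these was used. Arrays give no count depth, and their number limits the precision. The steps were tested on simulated data, in Python 3.11.15 with numpy 2.4.6, pandas 2.3.3, statsmodels 0.14.6 and matplotlib 3.10.9. Alternatives covered normalization, floor, probe set, fold threshold and the mean in place of the median.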

Additional observations from a re-analysis of the deposited data

How the results depend on the processing

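Median centring, quantile normalization, loess, no floor and a floor at the 25th percentile left the counts of genes past 2-fold as they were and moved the medians by less than their tolerance, which is the typical SD between probe sets, 0.38, over the square root of the number of genes (0.080, 0.104 and 0.188 for nucleotide excision, base excision and mismatch repair). So did the mean for the medians, at -0.14, 0.0031 and 0.19, and a floor at the 75th percentile, at -0.014, 0.0069 and 0.23, where base excision turned sign in both. The choice of probe set moved them further. The nucleotide excision median, -0.07, was -0.16 with the median over probe sets, -0.16 with the dimmest probe set and 0.068 without _x_at and _s_at probe sets. The base excision median, -0.05, was 0.060, 0.063 and -0.26 in the same order of settings, and the mismatch repair median, 0.23, was -0.13 without _x_at and _s_at probe sets, where only 2 genes had a value, and 0.058 with the dimmest probe set. Counts past 2-fold were small throughout. In nucleotide excision repair, 1 gene was higher with the dimmest probe set and 1 at 1.5-fold, and the 1 gene lower, XAB2, was 2 genes with the median over probe sets (XAB2 and ERCC4), 0 with a floor at the 75th percentile, 0 at 3-fold and 4 at 1.5-fold. In base excision repair, the 1 gene higher, UNG, was 0 without _x_at and _s_at probe sets, where it has no value, 2 with the dimmest probe set, 0 at 3-fold and 3 at 1.5-fold, with 1 lower at 1.5-fold. In mismatch repair, 1 gene was higher and 1 lower at 1.5-fold, and 1 was lower without _x_at and _s_at probe sets. Of the 39 genes, 29 kept their sign under each of 9 alternatives in which they had a value, and 10 did not, and 4 passed 2-fold in an alternative alone: ERCC2 (1.18) and LIG3 (1.18) with the dimmest probe set, ERCC4 (-1.65, with a probe set under the floor on both arrays averaged in) with the median over probe sets, and PMS1 (-1.22) without _x_at and _s_at probe sets. UVSSA was 0.32 without _x_at and _s_at probe sets. Over all expressed genes, 2-fold counts of 807 higher and 974 lower were 2955 and 3289 with no floor, 1898 and 2291 with the 25th percentile, and 404 and 470 with the 75th. No paired analysis was possible because each line has 1 array and no test was made. XAB2 lay just over the floor on the array labelled A549/DDP, which limits its value.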
